A study of Homo sapiens with 12 samples.

Results

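The genes described here are 38 heat shock, co-chaperone and chaperonin genes of the cytosol and the mitochondrial matrix, taken as a named list and matched by gene symbol among the 61533 gene entries of the series. All 38 were found, and 36 passed the filter on low counts and were tested. Polyadenylated RNA was sequenced from 4 lines derived from HMLE, a culture of mammary epithelial cells made immortal by telomerase and SV40 proteins. Each line overexpressed 1 construct: the control, CT83, HORMAD1, or HORMAD1 together with CT83 (here the double line), all under puromycin selection, with 3 replicate libraries each and 12 in all. CT83 is a cancer/testis antigen gene, and HORMAD1 is a meiotic protein found on chromosome axes that have not yet synapsed. The comparisons ask for the effect of each transgene and for their cooperation. The promoter that drives the transgenes is not given in the sources used here.

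Total expected counts ranged from 9898845 to 14159740 per library. HORMAD1 and CT83 transcripts had 0 counts in every library not labelled with them, 202.8 to 346.5 CPM of HORMAD1 in its 2 lines, and 400.2 to 723.7 CPM of CT83 in the CT83 line against 86.7 to 117.8 CPM in the double line. CPM is a count scaled to one common library size, after TMM scaling. The 9 epithelial markers summed to 8160 to 10771 CPM per library, and KRT5 alone had at least 2411 CPM. The 8 fibroblast markers summed to 40.4 to 90.6 CPM in control, 28.5 to 43.6 in CT83, 26.1 to 47.3 in HORMAD1 and 38.5 to 89.2 in the double line, and their part in the results was not tested. Leukocyte markers summed to at most 1.93 CPM and endothelial markers to at most 1.55 CPM. Whether the replicates were separate cultures is not given in the labels, so p-values measure only how far these libraries spread, and that spread may be technical. With 1 line per construct, a transgene and a difference between lines cannot be told apart. CT83 was lower in the double line than in the CT83 line, so any comparison that uses both lines also mixes unequal CT83 levels.

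Chaperones bind unfolded proteins and keep them from aggregating while they fold. HSP70 proteins (HSPA genes) hold short exposed stretches in a cycle driven by ATP, which J-domain proteins start and HSP110 and BAG proteins reset by exchanging nucleotide. HSP90 then matures kinases and steroid receptors with the help of co-chaperones, and the CCT chaperonin, a double ring of 8 different subunits, folds actin and tubulin inside its cavity. In the mitochondrial matrix the same work is done by HSPA9 and by the HSPD1 and HSPE1 chamber. Many of these genes are switched on by HSF1, which binds repeated GAA units, the heat shock element, after heat or other stress to proteins.

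The heat shock element was searched for in RefSeq windows of 250 bases before to 50 after each annotated start (GRCh38.p14), because it is the regulatory sequence that the inducible members are known for. A run of 3 alternating units was spelled GAANNTTCNNGAA or, on the other strand, TTCNNGAANNTTC, and the shorter pattern GAANNTTC or TTCNNGAA lies within it. Windows were found for 34 of the 38 members, not for CCT6A, CRYAB, HSF1 and FKBP4. The longer pattern was present in 7 of these 34 (20.6%), namely HSPA8, DNAJA1, DNAJB6, HSP90AA1, HSP90AB1, CHORDC1 and HSPD1, and in 166 of the 27305 genes with a window (0.608%). The shorter pattern was present in 20 of 34 members (58.8%) and in 16.2% of all genes. Of the 7 CCT genes with a window, 0 had the longer pattern and 3 the shorter one. A match is a description of the letters and not a measured binding site.

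Upstream stretches of 6 genes are shown, each ending at the base before an annotated RefSeq start. Each is written 5′ to 3′ on the strand of its gene. They are HSPA8 (chr11:123062137-123062376, minus strand), HSP90AA1 (chr14:102087045-102087164, minus strand), HSP90AB1 (chr6:44247743-44247942, plus strand), CHORDC1 (chr11:90223050-90223139, minus strand), HSPA1A (chr6:31815413-31815542, plus strand) and HSPA1B (chr6:31827608-31827737, plus strand). Capitals mark every match to the patterns. HSPA8, HSP90AA1, HSP90AB1 and CHORDC1 show runs of 3 or more units, and the HSPA1 pair shows how alike these neighbouring genes are.
HSPA8: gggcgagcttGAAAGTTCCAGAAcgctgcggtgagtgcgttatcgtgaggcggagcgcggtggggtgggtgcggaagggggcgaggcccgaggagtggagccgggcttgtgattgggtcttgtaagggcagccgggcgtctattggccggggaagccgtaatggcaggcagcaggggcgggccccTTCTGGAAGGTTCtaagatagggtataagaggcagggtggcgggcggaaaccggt
HSP90AA1: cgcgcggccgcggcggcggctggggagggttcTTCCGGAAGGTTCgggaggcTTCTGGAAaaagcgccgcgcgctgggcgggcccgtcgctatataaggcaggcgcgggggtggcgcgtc
HSP90AB1: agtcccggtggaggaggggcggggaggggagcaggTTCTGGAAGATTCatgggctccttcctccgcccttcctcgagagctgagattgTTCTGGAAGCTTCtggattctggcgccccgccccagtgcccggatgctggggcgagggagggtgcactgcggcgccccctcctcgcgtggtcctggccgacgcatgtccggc
CHORDC1: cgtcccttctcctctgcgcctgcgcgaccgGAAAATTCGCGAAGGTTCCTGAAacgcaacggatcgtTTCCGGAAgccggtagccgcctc
HSPA1A: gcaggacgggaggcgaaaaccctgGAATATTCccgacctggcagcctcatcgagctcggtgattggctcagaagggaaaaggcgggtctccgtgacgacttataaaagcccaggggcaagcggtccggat
HSPA1B: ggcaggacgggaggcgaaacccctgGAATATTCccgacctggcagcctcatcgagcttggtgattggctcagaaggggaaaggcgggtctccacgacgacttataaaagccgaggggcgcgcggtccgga

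HSPA8 and HSP90AB1 each hold 2 matches to the longer pattern, and the 3 overlapping matches of CHORDC1 form a single run close to its start. The windows of HSPA1A and HSPA1B were identical at 277 of 299 aligned bases (92.6%), and both hold the same GAATATTC match. Reads of these genes, which lie on chromosome 6 at 31815464 to 31817946 and 31827735 to 31830255 (GRCh38, plus strand), may be split between near-identical copies, so their sum is also given below.

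The 38 genes took a median of 1.98% of all counts in a library (1.77 to 2.04%), and HSP90AB1, HSP90AA1, HSPA8 and HSPD1 together held 48.1 to 49.7% of that share. Levels between genes are compared as CPM per kilobase of the principal transcript. HSP90AB1, the constitutive cytosolic HSP90, was highest with 1025 to 1282 CPM per kilobase over the 12 libraries. HSPA8, the constitutive cytosolic HSP70, had 629 to 1073, and HSP90AA1, the inducible HSP90, 814 to 917 CPM per kilobase. The range of HSPA8 overlapped both others, while those of HSP90AB1 and HSP90AA1 did not overlap. This order depends on the transcript chosen: with the median transcript length, HSPA8 was highest at a mean of 2136, followed by HSPD1 at 2020, HSP90AA1 at 1469 and HSP90AB1 at 1210 CPM per kilobase. HSPD1, the mitochondrial chaperonin subunit, and HSPB1, a small heat shock protein, followed at 477 to 590 and 443 to 617 CPM per kilobase. Of the 37 neighbouring pairs in the order of mean levels, 30 overlapped in their library ranges.

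**Figure D1:**
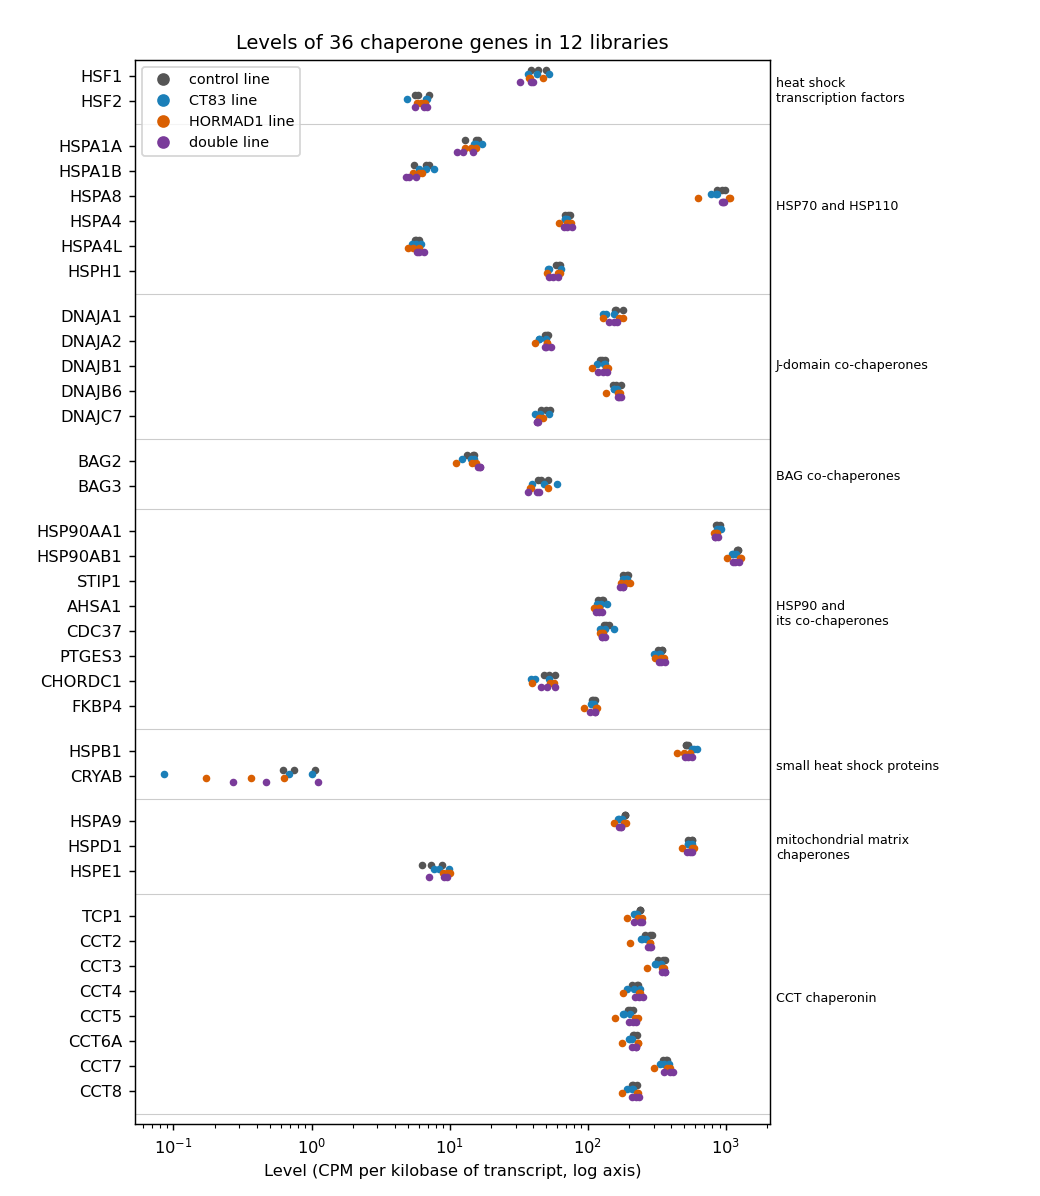
Level of the 36 tested chaperone genes (CPM per kilobase of transcript, log axis), with 1 point per library, coloured by line and grouped by role. HSP90AB1, HSPA8 and HSP90AA1 lie highest, the 8 CCT subunits have means of 201 to 367, and CRYAB is lowest; DNAJB4 and HSPB8 are not drawn.

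The 8 CCT subunits, which form 1 complex, had mean levels from 201 CPM per kilobase for CCT5 to 367 for CCT7, with CCT3 at 336, CCT2 at 267, TCP1 at 230, CCT4 at 223, and CCT6A and CCT8 both at 214. With the median transcript length they spread wider, from 221 for CCT6A to 966 for CCT3, with TCP1 at 736 CPM per kilobase. Reads of the antisense neighbours of CCT4 and CCT5 cannot be told apart from theirs unless strand was used, which is not given in the sources used here. Of the HSP90 co-chaperones, PTGES3 (p23, which stabilises the closed HSP90 dimer) had a mean of 334 CPM per kilobase, STIP1 (the HSP70 to HSP90 adaptor) 186, CDC37 (the kinase adaptor) 132, AHSA1 (the ATPase activator) 122, FKBP4 (an immunophilin of receptor complexes) 109 and CHORDC1 49.6. Among J-domain genes DNAJB6 stood at 162, DNAJA1 at 154, DNAJB1 at 127, DNAJA2 at 48.9 and DNAJC7 at 46.3 CPM per kilobase. HSPA9, the mitochondrial HSP70, had a mean of 176 CPM per kilobase.

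The HSPA1 pair stood far below HSPA8. HSPA1A and HSPA1B, the HSP70 genes that heat induces most, had mean levels of 14.4 and 6.09 CPM per kilobase against 909 for HSPA8, and their summed CPM was 1.73 to 3.52% of that of HSPA8. HSPH1 and HSPA4, the HSP110 exchange factors, stood at 58.1 and 70.6 CPM per kilobase and the related HSPA4L at 5.77. BAG3, which links HSP70 to small heat shock proteins and autophagy, had a mean of 45.1 and BAG2, an inhibitor of the ligase CHIP, 14.6 CPM per kilobase. HSF1 had 41.6 and its relative HSF2 6.23 CPM per kilobase. CRYAB, a small heat shock protein of muscle and lens, had 1 to 14 counts per library. The remaining 2 members stayed under the filter, DNAJB4 with 2 to 7 counts and HSPB8 with 0 to 5 counts per library.

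HSPE1, the lid of the mitochondrial chaperonin, was listed far below its partner HSPD1. Its counts gave 8.42, 6.03 and 6.91 CPM in control, 9.34, 7.95 and 7.27 in CT83, 9.10, 8.49 and 9.57 in HORMAD1 and 8.61, 6.75 and 9.16 in the double line, and HSPD1 exceeded it 129-fold to 215-fold in CPM. The 2 genes lie head to head on chromosome 2, and 14.2% of the exon bases of HSPE1 are shared with HSPD1 on the opposite strand. HSPE1 also shares exons with the readthrough gene HSPE1-MOB4 and has processed copies such as HSPE1P2 (1.11 to 2.72 CPM). The counting tool is not given in the sources used here, so the level of HSPE1 is uncertain.

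None of the tested members passed in any comparison. By the edgeR quasi-likelihood test, adjusted after Benjamini and Hochberg across 15616 genes, 0 of 36 members had an adjusted p under 0.05 in the CT83 line against control (all genes: 0.0064%), in the HORMAD1 line against control (0.0064%) and in the double line against control (0.0256%). The count was also 0 in the double line against the CT83 line (all genes: 0.0064%) and the HORMAD1 line (0.0448%), in the HORMAD1 line against the CT83 line (0.0128%), and for the average effects of CT83 (0.032%) and HORMAD1 (0.0064%) and their interaction (0%). DESeq2 and limma-voom also called 0 members in all 9 comparisons. An unadjusted edgeR p under 0.05 was reached by 2, 0 and 1 members against control in the CT83, HORMAD1 and double lines, where 2.74%, 1.82% and 5.56% of all genes did. It was reached by 3 members in the double line against the CT83 line (8.05% of all genes), by 1 against the HORMAD1 line (7.59%), by 1 in the HORMAD1 line against the CT83 line (4.64%), by 1 for each average effect (6.21% and 3.73%) and by 0 for the interaction (4.5%).

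**Figure D2:**
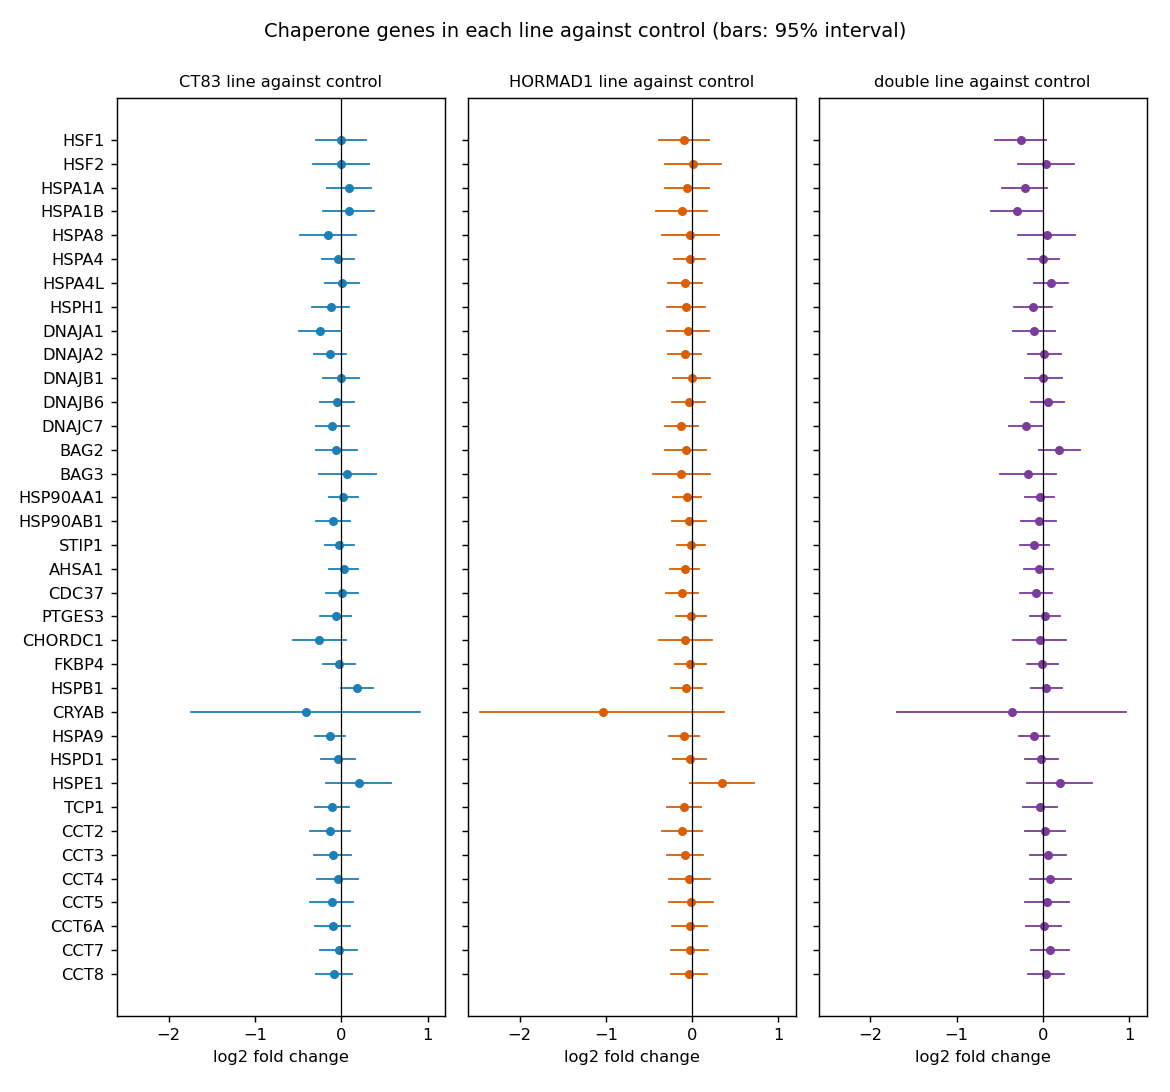
Log2 fold change of each tested chaperone gene against control in the CT83, HORMAD1 and double lines, with points for estimates and bars for 95% intervals from the edgeR fit. Apart from CRYAB, the estimates lie between -0.30 and 0.34, and all 3 panels share the control libraries.

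The differences were small. Against control the median log2 fold change of the members was -0.05 in the CT83 line, -0.06 in the HORMAD1 line and -0.003 in the double line, with medians of all genes of 0.01, 0.01 and -0.001. Above 0 lay 9, 2 and 18 of the 36 members, and 51.6%, 52.0% and 49.7% of all genes; the other 27, 34 and 18 members lay below. The median SE was 0.10. These 3 comparisons share the control libraries. A lower level in bulk RNA cannot be told apart from fewer cells that express the gene.

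Among the HSP70 genes, HSPA8 had 2317, 2111 and 2443 CPM in control, 2106, 1917 and 2136 in CT83, 1549, 2642 and 2578 in HORMAD1 and 2320, 2345 and 2403 in the double line. One HORMAD1 library was the lowest of the 12 and the other 2 were the highest. The log2 fold changes against control were -0.16 ± 0.15, -0.02 ± 0.15 and 0.04 ± 0.15 (± SE, here and below) in the CT83, HORMAD1 and double lines, none past the test. Its levels in the double line lay above all CT83 libraries, with a log2 fold change of 0.20 ± 0.15 (edgeR adjusted p = 0.633).

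HSPA1A had 32.2, 39.8 and 38.8 CPM in control, 38.2, 37.1 and 42.5 in CT83, 38.7, 31.8 and 35.5 in HORMAD1 and 28.0, 31.2 and 36.4 in the double line. HSPA1B had 13.9, 17.8 and 16.9 CPM in control, 17.0, 15.2 and 19.4 in CT83, 15.8, 13.8 and 15.0 in HORMAD1 and 12.2, 12.8 and 14.5 in the double line. For both genes the 3 double libraries lay below the 3 CT83 libraries and overlapped control. Against the CT83 line the log2 fold change in the double line was -0.30 ± 0.12 for HSPA1A and -0.39 ± 0.14 for HSPA1B (edgeR adjusted p = 0.585 for both). Summed, the pair gave -0.33 ± 0.12 (edgeR adjusted p = 0.585). HSPA1A made up 68.6 to 71.5% of the pair in every library. Against control the double line gave -0.21 ± 0.12 for HSPA1A and -0.30 ± 0.14 for HSPA1B (edgeR adjusted p = 0.900 and 0.886). Averaged over the presence of CT83, HSPA1B had a log2 difference of -0.25 ± 0.10 with HORMAD1 (edgeR adjusted p = 0.899).

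HSPH1 had 305, 324 and 325 CPM in control, 274, 268 and 334 in CT83, 265, 317 and 327 in HORMAD1 and 272, 291 and 316 in the double line, with overlap of every line and control. Its log2 fold changes against control were -0.12 ± 0.10, -0.07 ± 0.10 and -0.12 ± 0.10. HSPA4 stayed between 301 and 369 CPM and HSPA4L between 53.5 and 70.6 CPM over the 12 libraries. Neither passed the test in a comparison.

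Of the J-domain genes, DNAJA1, which recruits substrates to HSP70, had 379, 372 and 428 CPM in control, 321, 305 and 369 in CT83, 309, 401 and 426 in HORMAD1 and 341, 368 and 385 in the double line. All 3 CT83 libraries lay below the 3 control libraries, by a small margin for CT83 replicate 3. Between CT83 and control, 5 of 36 members had all CT83 libraries below control (5.73% of all genes) and 1 had them above (4.73%). The log2 fold change of DNAJA1 there was -0.24 ± 0.11 (edgeR adjusted p = 0.984). The other members below were HSPA9, HSP90AB1, TCP1 and CCT6A, with log2 fold changes of -0.13, -0.10, -0.11 and -0.10.

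DNAJC7, an HSP70 and HSP90 adaptor, had 93.1, 108 and 101 CPM in control, 90.7, 84.1 and 107 in CT83, 95.8, 89.9 and 91.3 in HORMAD1 and 87.3, 88.1 and 87.2 in the double line. The double libraries were nearly equal and lay below all control and HORMAD1 libraries. The log2 fold change against control was -0.20 ± 0.09 (edgeR adjusted p = 0.871). In that comparison 2 members, DNAJC7 and HSPA9, had all double libraries below control (7.83% of all genes) and 1, BAG2, had them above (7.61%). DNAJB1, the J-domain partner that heat induces, stayed between 242 and 316 CPM, with log2 fold changes against control between -0.01 and 0.005. DNAJA2 ranged from 129.8 to 170.2 CPM and DNAJB6 from 217.3 to 280.5 CPM.

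BAG2 had 98.5, 89.2 and 100.2 CPM in control, 99.1, 95.2 and 82.1 in CT83, 74.1, 103 and 96.1 in HORMAD1 and 111, 111 and 106 in the double line. The 3 double libraries lay above the other 9. The log2 fold change of the double line was 0.19 ± 0.11 against control, 0.25 ± 0.11 against CT83 and 0.26 ± 0.11 against HORMAD1 (edgeR adjusted p = 0.900, 0.585 and 0.606). For the interaction BAG2 was at 0.32 ± 0.16 (edgeR adjusted p = 0.841). RAB23 covers 42.7% of the exon bases of BAG2 on the opposite strand, and without strand their reads cannot be told apart. The double line lay wholly above the CT83 line for 5 members (8.86% of all genes) and wholly below it for 3 (9.04%). Those above were BAG2, HSPA8, DNAJB6, CCT2 and CCT3, and those below were HSPA1A, HSPA1B and HSPB1. Against HORMAD1 only BAG2 lay wholly above (6.29% of all genes) and DNAJC7 wholly below (5.91%).

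BAG3, which HSF1 induces, had 117, 132 and 112 CPM in control, 101, 124 and 155 in CT83, 133, 99.0 and 98.9 in HORMAD1 and 94.8, 111 and 115 in the double line. The spread within CT83 exceeded every difference between lines, and the log2 fold changes against control were 0.07 ± 0.15, -0.12 ± 0.15 and -0.17 ± 0.15. HSF1 itself had 92.97, 107 and 83.7 CPM in control, 79.5, 92.6 and 112 in CT83, 102, 82.2 and 80.9 in HORMAD1 and 68.9, 85.8 and 82.4 in the double line. Its log2 fold changes against control were -0.001 ± 0.14, -0.10 ± 0.14 and -0.26 ± 0.14, with overlap throughout. HSF2 ranged from 12.4 to 18.0 CPM.

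The HSP90 genes differed little between lines. HSP90AA1 had 2904, 2889 and 3074 CPM in control, 3099, 3015 and 2897 in CT83, 2751, 2877 and 2895 in HORMAD1 and 2979, 2811 and 2836 in the double line. HSP90AB1 had 3268, 3225 and 3298 CPM in control, 3185, 2994 and 2972 in CT83, 2740, 3371 and 3428 in HORMAD1 and 3353, 3105 and 2997 in the double line. CT83 libraries lay below control for HSP90AB1 and overlapped control for HSP90AA1. The share of HSP90AA1 in the CPM of the pair was 47.1, 47.3 and 48.2% in control and 49.3, 50.2 and 49.4% in CT83, with no overlap (p = 0.1 by a two-sided exact permutation test, the lowest value that 3 against 3 libraries allow). It was 50.1, 46.0 and 45.8% in HORMAD1 and 47.05, 47.5 and 48.6% in the double line, which overlapped control. The choice of this ratio was made with the values known.

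CHORDC1, an HSP90 co-chaperone with zinc-binding CHORD domains, had 139, 129 and 153 CPM in control, 111, 103 and 138 in CT83, 105, 141 and 152 in HORMAD1 and 122, 135 and 153 in the double line. CT83 replicates 1 and 2 were below every control library and replicate 3 was not. The log2 fold change in the CT83 line was -0.26 ± 0.14 (edgeR adjusted p = 0.984). For CDC37 the HORMAD1 libraries, at 197, 206 and 202 CPM, lay below the control libraries at 209.9, 229 and 219 CPM, with a log2 fold change of -0.12 ± 0.09 (edgeR adjusted p = 1). In that comparison CDC37 was the 1 member wholly below (3.32% of all genes) and HSPE1 the 1 wholly above (4.25%), at 0.34 ± 0.17 (edgeR adjusted p = 1).

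**Figure D3:**
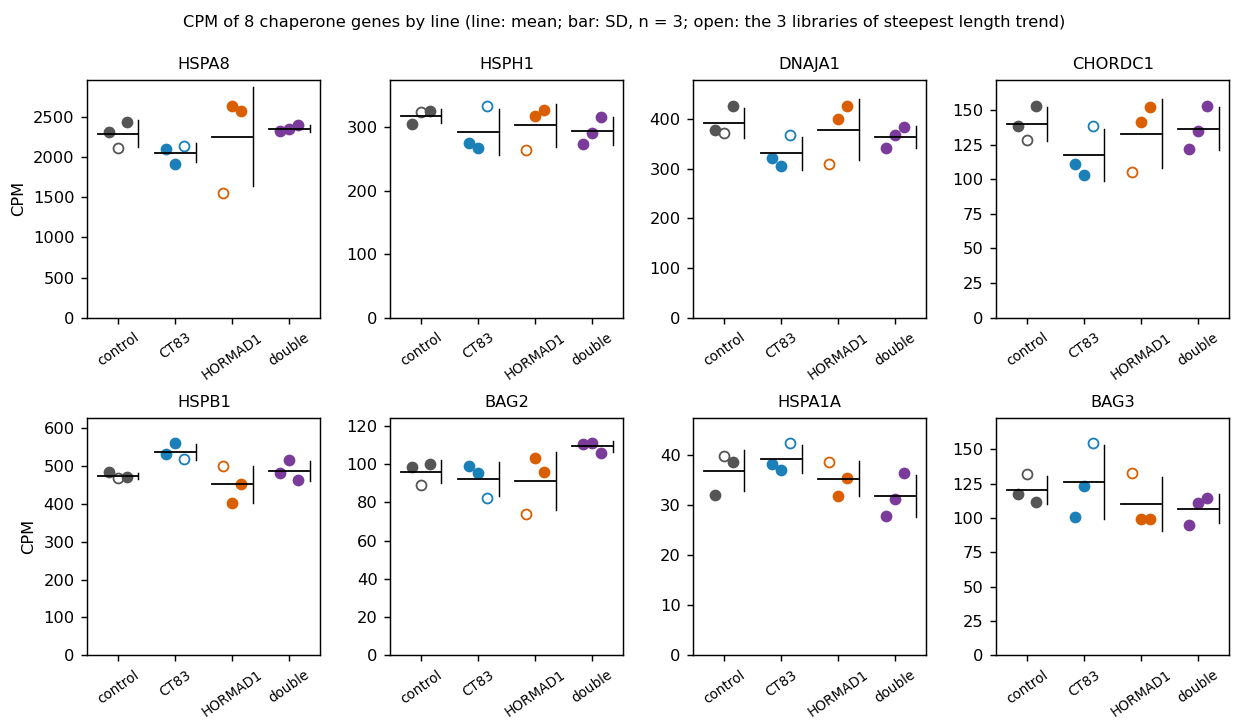
CPM of HSPA8, HSPH1, DNAJA1, CHORDC1, HSPB1, BAG2, HSPA1A and BAG3 in every library, by line, with the mean and SD of 3 libraries; open symbols are control replicate 2, CT83 replicate 3 and HORMAD1 replicate 1. In the HORMAD1 line, the open symbol of HSPA8 lies at 1549 CPM and the filled ones at 2642 and 2578.

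HSPB1, which caps unfolded proteins without ATP, had 483, 468 and 470.3 CPM in control, 533, 561 and 519.9 in CT83, 499.9, 403 and 453 in HORMAD1 and 482, 517 and 463 in the double line. Every CT83 library lay above every library of the other 3 lines. Against control the log2 fold change of the CT83 line was 0.18 ± 0.09, and the HORMAD1 line against the CT83 line gave -0.25 ± 0.09 (edgeR adjusted p = 0.984 and 0.978). In the latter comparison HSPB1 and HSP90AA1 were the 2 members wholly below (3.28% of all genes) and 0 were wholly above (4.2%). Averaged over the presence of HORMAD1, HSPB1 had a log2 difference of 0.15 ± 0.06 with CT83 (edgeR adjusted p = 0.725). CRYAB, at 1 to 14 counts, had log2 fold changes of -0.41 ± 0.62, -1.03 ± 0.66 and -0.36 ± 0.62 against control.

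Of the mitochondrial genes, HSPD1 had 1394, 1299 and 1405 CPM in control, 1399, 1297 and 1296 in CT83, 1172, 1396 and 1448 in HORMAD1 and 1407, 1353 and 1278 in the double line, with log2 fold changes of -0.04 ± 0.09, -0.03 ± 0.09 and -0.02 ± 0.09 against control. HSPA9 had 522.5, 529.5 and 529.1 CPM in control and 479, 468 and 501 in CT83, and the double line at 494, 496 and 477 CPM also lay below control. Its log2 fold changes were -0.13 ± 0.08 and -0.11 ± 0.08 in these 2 lines (edgeR adjusted p = 0.984 and 0.907).

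The CCT subunits shared their lowest library. In HORMAD1 replicate 1 all 8 subunits were at their lowest of the 12 libraries, with a mean log2 deviation of -0.30 from the mean of the 12. That library also held the lowest level of 16.7% of all tested genes. Elsewhere subunits could differ in sign, as in control replicate 2 with TCP1 at 0.06 and CCT4 at -0.10. CCT2 had 578, 526 and 595 CPM in control, 543, 505 and 497 in CT83, 413, 574 and 573 in HORMAD1 and 589, 577 and 561 in the double line. TCP1, the alpha subunit, had 602, 596 and 595 CPM in control, 560.3, 537 and 567 in CT83, 482, 580.5 and 615 in HORMAD1 and 614, 600.05 and 538 in the double line. All 8 subunits had log2 fold changes below 0 in the CT83 line (-0.14 to -0.03) and in the HORMAD1 line (-0.12 to -0.02) against control, and 7 of 8 above 0 in the double line (-0.03 to 0.09). In the double line against the CT83 line all 8 lay above 0, with a median of 0.12, and 0 passed the test. For the interaction the 8 values ran from 0.14 to 0.28, and all 8 edgeR adjusted p were 0.841 or more. Without HORMAD1 replicate 1 all 8 lay above 0 in the HORMAD1 line against control (0.005 to 0.14), 7 of 8 lay below 0 in the double line against the HORMAD1 line, where 8 of 8 had been above, and the median of the interaction values went from 0.17 to 0.03.

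**Figure D4:**
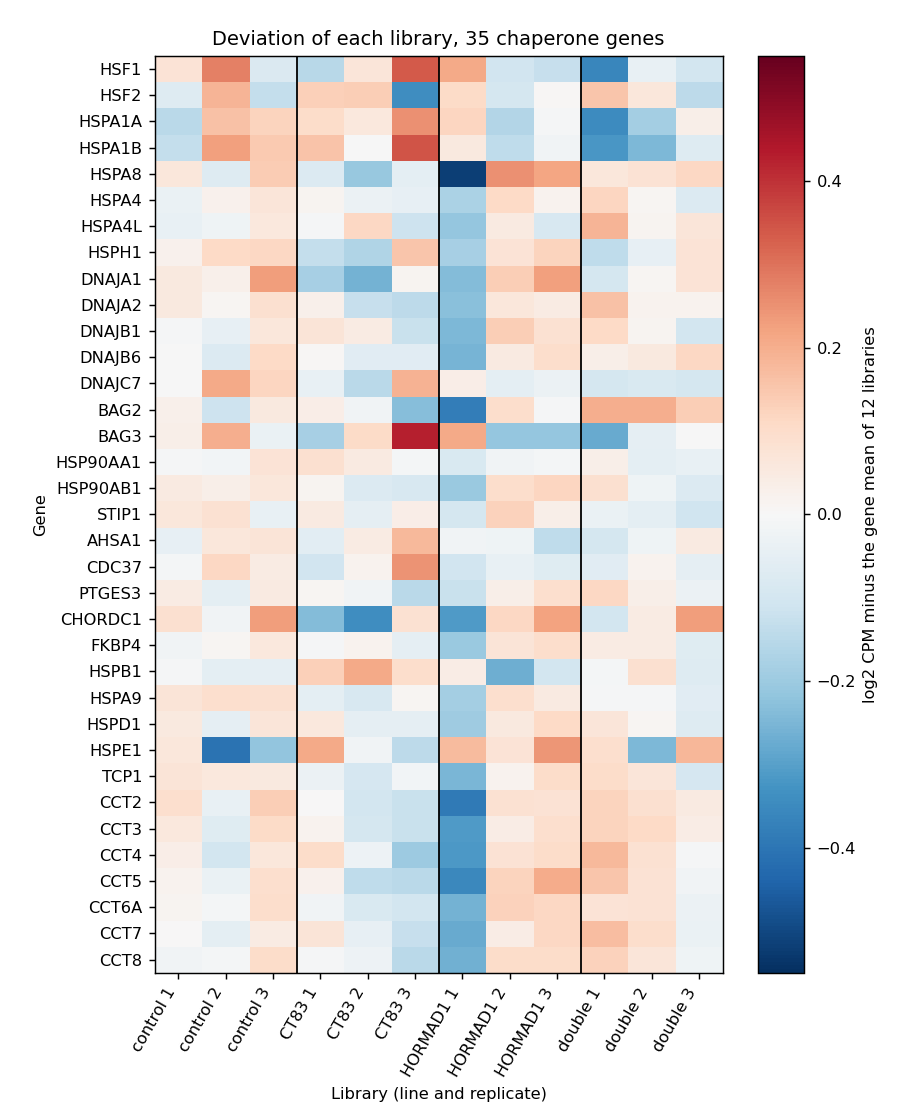
Log2 CPM of 35 chaperone genes in each library minus the mean of the gene over the 12 libraries (colour, blue below and red above), with black lines between control, CT83, HORMAD1 and the double line; CRYAB is left out. The column of HORMAD1 replicate 1 is mostly blue, with 22 of the 36 tested members at their lowest there.

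HORMAD1 replicate 1 held the lowest level of 22 of the 36 members and of 16.7% of all tested genes. Libraries differed in how their levels depended on transcript length. The slope of log2 deviation on log2 length was 0.060 in HORMAD1 replicate 1, 0.055 in CT83 replicate 3 and 0.029 in control replicate 2, and between -0.048 and 0.005 in the other 9. The mean CCT deviation was -0.30, -0.12 and -0.03 in those 3 libraries and -0.08 to 0.13 in the others. BAG3 went the opposite way with 0.21, 0.43 and 0.20 in the 3 libraries and from -0.28 to 0.11 in the others. HSF1 was at 0.21, 0.34 and 0.28 there and from -0.36 to 0.07 in the others. For both genes the lowest value was in double replicate 1. The principal transcripts of BAG3 and HSF1, of 2571 and 2142 bases, lie within the CCT range of 1916 (CCT7) to 3675 (CCT5). Whether transcript length accounts for the shifts of these members was not tested. A fit with a transcript-length offset called 0 members in all 9 comparisons, and fits without these libraries are given next.

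**Figure D5:**
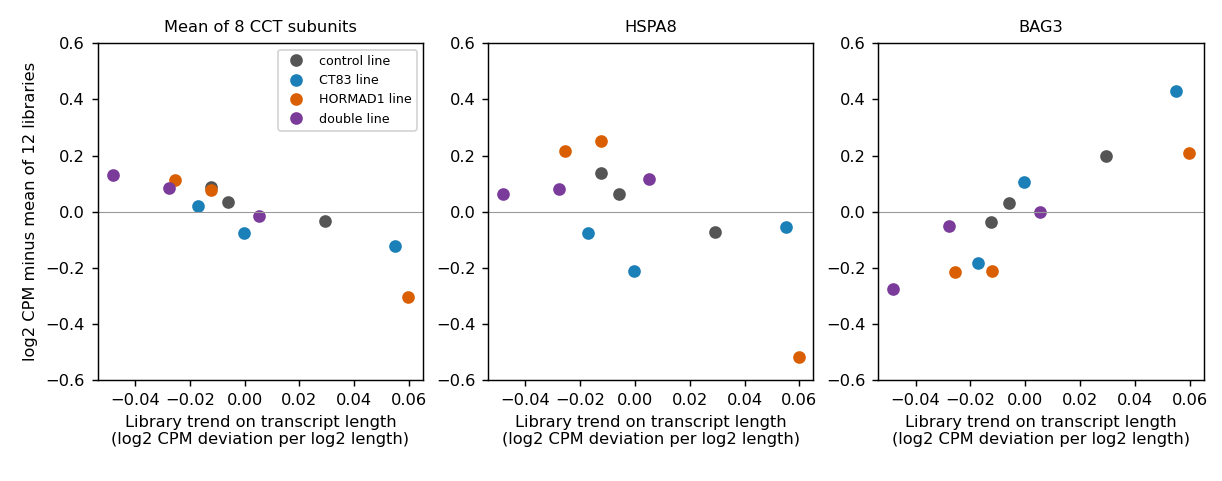
Deviation of the mean of the 8 CCT subunits, of HSPA8 and of BAG3 (log2 CPM minus the mean of 12 libraries) against the slope of each library on transcript length, with 1 point per library coloured by line. HORMAD1 replicate 1, at a slope of 0.060, lies lowest for CCT (-0.30) and HSPA8 (-0.52), while BAG3 is highest in CT83 replicate 3 (0.43).

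The count of members below 0 in the HORMAD1 line against control fell from 34 to 13 of 36 without HORMAD1 replicate 1, and the median log2 fold change went from -0.06 to 0.04. Without it, HSPA8 was the 1 member called in the HORMAD1 line against the CT83 line, at 0.35 ± 0.08 (edgeR adjusted p = 0.0475, all genes called: 0.726%). In the double line against the HORMAD1 line, members below 0 went from 11 to 26. That library was singled out after its values were seen. It was the farthest from the others of its line (chi-square over its degrees of freedom, 21.78 and 26.41). Replicates 2 and 3 gave 2.54. Leaving it out lowers the spread, so the adjusted p of HSPA8 may be too small.

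Without all 3 libraries of steep slope, leaving 2 libraries in each of these lines and 3 in the double line, some members passed the test. Of the members, 2 fell in the CT83 line against control (0.76% of all genes called), with log2 fold changes of -0.36 ± 0.07 for DNAJA1 and -0.45 ± 0.09 for CHORDC1 (edgeR adjusted p = 0.0304 for both). In the HORMAD1 line against the CT83 line 5 of 36 were called (13.9%), where 5.92% of all genes were. HSPA8 rose by 0.38 ± 0.06, HSPH1 by 0.25 ± 0.07, DNAJA1 by 0.40 ± 0.07 and CHORDC1 by 0.46 ± 0.09, and HSPB1 changed by -0.35 ± 0.07 (edgeR adjusted p = 0.00109, 0.0405, 0.00251, 0.00547 and 0.00523). The same 5 genes were called for the average effect of CT83 (4.86% of all genes called), HSPB1 above 0 at 0.19 ± 0.05 and the other 4 below 0, from -0.28 to -0.18. In the other 6 comparisons 0 members were called by edgeR (0.0383%, 0.083%, 0.466%, 2.16%, 0.0319% and 0.14% of all genes, for HORMAD1 and the double line against control, the double line against CT83 and against HORMAD1, the average effect of HORMAD1, and the interaction). HSPA8, DNAJA1 and CHORDC1 are among the 7 members with the longer heat shock element pattern, and HSPH1 and HSPB1 are not. HSPB1 holds only the shorter pattern and HSPH1 neither. DNAJB6, HSP90AA1, HSP90AB1 and HSPD1 also hold the longer pattern and were not called. The heat-induced HSPA1A, HSPA1B, DNAJB1 and BAG3 were not called either. BAG3 holds neither pattern, and HSPA1A, HSPA1B and DNAJB1 hold only the shorter one. Whether either pattern bears on the calls was not tested. The left-out libraries were ranked by their slope over all genes, with earlier results known, and these calls rest on 2 CT83 libraries. The pairs kept were the closest of control, CT83 and HORMAD1 (chi-square over its degrees of freedom, 2.66, 3.21 and 2.54). Pairs with a left-out library had 7.37 to 26.41. The SE of HSPA8 in the HORMAD1 line against the CT83 line went from 0.15 to 0.06. The spread is thus lowered, and these adjusted p may be too small.

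Related chaperone lists gave the same count of calls. By edgeR, 0 of 28 tested other cytosolic chaperones, 0 of 8 prefoldin and CCT partners, 0 of 17 other mitochondrial chaperones and proteases, 0 of 18 chaperones of the endoplasmic reticulum and 0 of 15 heat-inducible genes passed in any of the 9 comparisons. Unadjusted edgeR p values under 0.05 against control numbered 0, 0, 0, 0 and 2 in the CT83 line (2.74% of all genes). The 2 genes were DNAJA1 and HSPB1, both counted among the members above. Such values numbered 0 in each list in the HORMAD1 line (1.82% of all genes), and 1, 0, 1, 1 and 0 in the double line (5.56%). The heat-inducible list holds members described above and is not independent of them. Prefoldin, which hands unfolded actin and tubulin to CCT, and its partners had 3, 5 and 8 of 8 genes above 0 against control in the CT83, HORMAD1 and double lines, with medians of -0.02, 0.04 and 0.11. In the double line PFDN1 was at 0.15 ± 0.09 and PDCL at 0.13 ± 0.09 (edgeR adjusted p = 0.900 and 0.901). Chaperones of the endoplasmic reticulum lay below 0 in 14, 16 and 15 of 18 cases against control in the CT83, HORMAD1 and double lines, with medians of -0.07, -0.07 and -0.08. How the counts of these lists depend on HORMAD1 replicate 1 was not tested. HSPA5, the master chaperone of that compartment, was at -0.17 ± 0.10 in the HORMAD1 line, and HYOU1, its exchange factor, at -0.24 ± 0.11 in the double line (edgeR adjusted p = 1 and 0.871). HSPA5 had 1099, 1126 and 1184 CPM in control and 853, 1049 and 1124 in HORMAD1, with replicate 1 the lowest. BAG6 was at -0.30 ± 0.11 and the mitochondrial protease LONP1 at -0.25 ± 0.10 in the double line against control (edgeR adjusted p = 0.797 and 0.864).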

How the data were processed

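The authors deposited expected counts per gene for each library, estimated counts that need not be whole. The submitters' processing notes list Trimmomatic 0.39, STAR 2.7.5c, Picard, SAMtools and, with no role, 2 builds (hg38, hg19). Which tool counted the reads, on which annotation and with which strand setting is not given in the sources used here. Counts were rounded (6.75% of values changed, by at most 0.5); the fit had been planned for raw counts and was kept. The labels' protocol adds ERCC RNA, and the files held 0 ERCC entries. Positions and transcript lengths came from GENCODE 29 (GRCh38).

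In R 4.3.3 with edgeR 4.0.16, genes were filtered at a minimum count of 10, scaled by TMM and fitted by quasi-likelihood over all 12 libraries (1 mean per line, leaving 8 residual degrees of freedom). Genes with a p under 0.05 after Benjamini-Hochberg adjustment counted as called, over all 15616 genes, in each of 9 comparisons. CPM used no prior count; log2 deviations used a prior count of 2. Replicates of a line all differed by more than sampling noise (chi-square over its degrees of freedom, 2.54 to 26.41). The median SE of a member's log2 fold change, 0.10, includes this spread as well as counting error.

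The members and lists were chosen with earlier results of these data known. Every member is given with its level. By rule, statistics were planned for members called in any comparison and for 14 fixed members. They were also planned for up to 3 members above and 3 below 0 with the smallest p per comparison. Of other lists, at most 4 genes per comparison were planned. Not all of the planned values are printed above. Levels per kilobase use the principal transcript, a choice made after seeing that the planned median counts short fragments. Alternatives were other scalings and filters, DESeq2 1.42.0, limma-voom (limma 3.58.1), fits of the compared groups only, a replicate block, other thresholds, a transcript-length offset, and leaving out libraries.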

Additional observations from a re-analysis of the deposited data

How the results depend on the processing

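The count of members called was 0 in a fit restricted to the compared groups, which applies only to the comparisons of 2 lines. It was 0 in all 9 comparisons under other scalings and filters, DESeq2, limma-voom, adjusted p thresholds of 0.01 and 0.1 and a transcript-length offset. It was also 0 with the replicate block; same-numbered libraries had r over 0.1 in 6 of 18 pairs (-0.35 to 0.35) and 6 of 12 libraries correlated best with their own number, so the numbers were not taken as pairs. Without the 3 libraries of steepest length trend, 2 members were called in the CT83 line against control, 5 in the HORMAD1 line against the CT83 line and 5 for the average effect of CT83, where genes called overall went from 1 to 119, from 2 to 927 and from 5 to 761. Leaving out 1 library at a time gave 0 to 1 called members in the HORMAD1 line against the CT83 line and 0 in the other 8 comparisons; genes called there ranged from 1 to 115, and from 0 to 39 in the double line against the HORMAD1 line, against 7 with all libraries, and from 0 to 97 for the average effect of CT83, against 5. The lone call, and the 115, 39 and 97 genes, came without HORMAD1 replicate 1. The 3 libraries of steepest length trend, this one among them, differed most from the others of their line. Fits without them may therefore understate the spread.

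Of 2194 alternative values over 88 gene results, 2132 kept direction and call, 9 became called and 53, in 21 results, changed sign; the cause was not tested. With library size alone, DNAJB1 was at 0.0234, 0.00398 and -0.00111 against control in the CT83, HORMAD1 and double lines and HSF1 at 0.024 in the CT83 line. HSF1 there was 0.00233 with the stricter filter, 0.00263 with only the groups compared and 0.00489 with the length offset. DNAJB1 in the double line was -0.000415 without a filter and -0.00956 with the length offset, and 0.00106 in the CT83 line with only the groups compared. Without the 3 steep libraries, BAG3 was at -0.0308 and DNAJB1 at 0.0276 in the CT83 line. In the HORMAD1 line DNAJB1 was then at 0.0817, HSP90AB1 0.0518, HSPA8 0.13, HSPD1 0.0243 and HSPH1 0.0326, and in the double line DNAJB1 was at -0.0194 and HSPA8 at -0.0149.

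Leaving out 1 library at a time, results against control that changed sign ranged as follows. In the CT83 line they were BAG3 from -0.0968 to 0.21, CRYAB from -0.9996 to 0.0689, DNAJB1 from -0.037 to 0.0553, HSF1 from -0.13 to 0.11, HSPA1A from -0.00341 to 0.15 and HSPA1B from -0.0155 to 0.17. In the HORMAD1 line they were DNAJB1 from -0.0752 to 0.11, HSF1 from -0.21 to 0.00645, HSF2 from -0.0535 to 0.12, HSP90AB1 from -0.0952 to 0.0638, HSPA1A from -0.16 to 0.0111, HSPA8 from -0.15 to 0.19, HSPB1 from -0.14 to 0.0103, HSPD1 from -0.0899 to 0.0628, HSPH1 from -0.13 to 0.0227 and TCP1 from -0.17 to 0.0053. In the double line they were DNAJB1 from -0.0471 to 0.0533, HSPA8 from -0.0129 to 0.0898, HSPB1 from -0.00451 to 0.0712, HSPD1 from -0.0543 to 0.011 and TCP1 from -0.0708 to 0.0189. Depth limits CRYAB, DNAJB4 and HSPB8, with at most 14, 7 and 5 counts in a library.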
